A study of Mus musculus with 4 samples.

Results

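Tgm2 encodes transglutaminase 2, a calcium-dependent enzyme that joins glutamine to lysine residues of proteins and so crosslinks them. It also binds GTP, and outside the cell it binds fibronectin and integrins. It is widely expressed, with high levels known in endothelial cells and in macrophages, and its gene is a classical target of retinoic acid. Foxo1 is a forkhead transcription factor that acts in the nucleus of resting T cells and is moved out of it when growth factor or antigen receptor signalling activates the kinase Akt.

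Tgm2 was followed through every probe set (a group of short probes on an Affymetrix array that reads the same transcript) that carried its symbol in either of the authors' deposited fold change tables. Tgm2, 1 of 507 genes named there, had 4 such probe sets among 45037 non-control ones, 1417500_a_at, 1433428_x_at, 1437277_x_at and 1455900_x_at, and each was listed for both cell types. Tgm2 was chosen by its difference in intensity between genotypes, so the genotype differences below describe why it was picked and carry no test.

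The study, titled as a search for Foxo1 target genes, isolated CD4 and CD8 T cells from the lymph nodes and spleens of mice 6 to 8 weeks old. Each cell type was taken from mice of either genotype, labelled wild-type or Foxo1-deficient, which makes 4 groups with 1 array each. The sources used here do not say how Foxo1 was deleted, in which cells, on which strain background, or how many mice were pooled. With 1 array per group no spread between mice or preparations can be estimated, and no difference between arrays has a replicate check. Because RNA from whole cell preparations was measured, more RNA per cell and more cells that express a gene cannot be told apart.

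Values are linear intensities as the authors deposited them, and array medians ranged from 69.0 to 77.6. The median of all non-control values, 74.9, served as a floor. Values under it were treated as unmeasured and set to it, and a difference with only 1 side above it is given as a bound ("at least"). As a check of the labels, Foxo1 itself was lower in the deficient array of either cell type. Over its 3 probe sets above the floor in both arrays of a comparison, the Foxo1 signal left was 4.91% to 13.5% of wild-type in CD4 and 17.4% to 26.6% in CD8 T cells. None of 8 T cell marker genes carried a symbol, so the labelled cell types could not be checked against CD3, CD4 or CD8 genes.

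In wild-type T cells Tgm2 intensities lay near or under the floor, which is a median of all values and not a measured detection limit. The 4 probe sets, in the order given above, had intensities of 70.2, 84.6, 69.9 and 71.2 in wild-type CD4. Wild-type CD8 T cells gave 88.2, 58.0, 39.0 and 25.8. Only 1 probe set was above the floor in each wild-type array, and it was a different one in CD4 (1433428_x_at, at 1.13 times the floor) and in CD8 (1417500_a_at, at 1.18 times the floor). In the Foxo1-deficient arrays all 4 were well above the floor, at 1377, 7103, 4934 and 5290 in CD4 and at 609, 3350, 2217 and 2285 in CD8. The lowest Foxo1-deficient value of any probe set was thus 8.13 times the floor, and for every probe set the order of the arrays was Foxo1-deficient CD4, then Foxo1-deficient CD8, then the wild-type arrays.

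**Figure D1:**
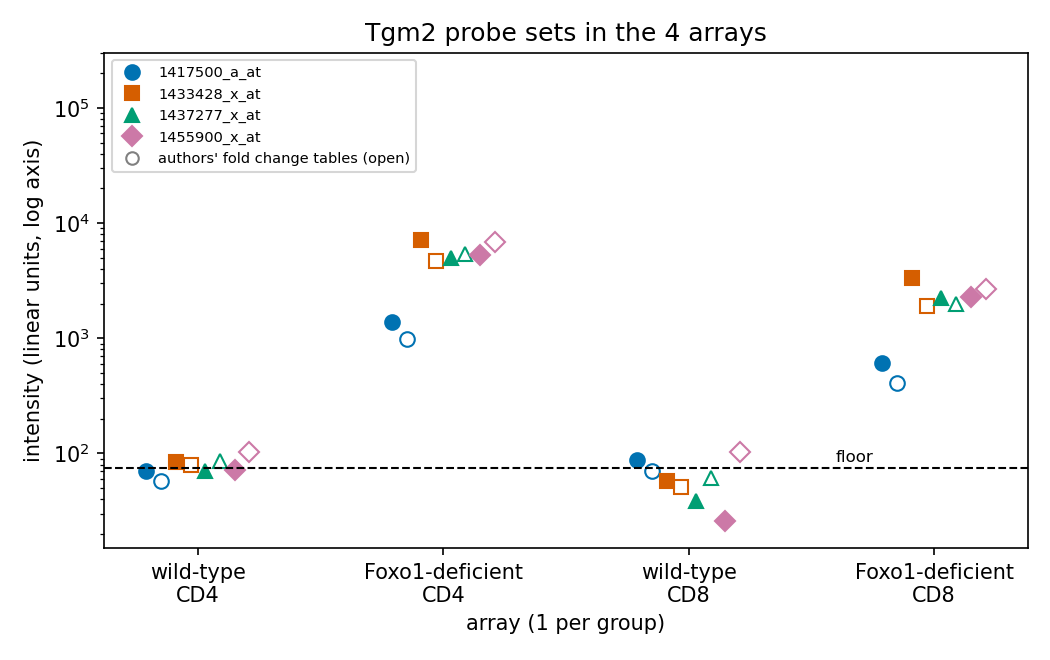
Intensity (log axis) of the 4 Tgm2 probe sets in each of the 4 arrays, with filled symbols for the deposited value table, open symbols for the intensities in the authors' fold change tables, and a dashed line at the floor of 74.9. The filled wild-type points lie between 25.8 and 88.2, around or under the floor, and the filled Foxo1-deficient points between 609 and 7103.

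Without Foxo1, Tgm2 was among the probe sets with the largest differences in both cell types, ranked here with the floor and with bounds at their limit. In CD4 T cells the brightest probe set, 1433428_x_at, was 84.0-fold higher and had the largest difference of 24070 probe sets compared. The 3 others were at least 70.6-fold (1455900_x_at), at least 65.9-fold (1437277_x_at) and at least 18.4-fold higher (1417500_a_at), at ranks 2, 4 and 8. All 4 passed 2-fold, as did 1.5% of all probe sets compared on the higher side, a share set beside a gene picked for this contrast.

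In CD8 T cells 1433428_x_at was at least 44.7-fold higher, at rank 2 of 23803 probe sets compared. The probe sets 1455900_x_at and 1437277_x_at were at least 30.5-fold and at least 29.6-fold higher, at ranks 3 and 4. The remaining one, 1417500_a_at, is the only one measured in both CD8 arrays, and it was 6.90-fold higher, at rank 19. On the higher side 1.47% of all probe sets compared in CD8 passed 2-fold. With bounds taken at their limit, 5830411N06Rik at 55.3-fold ranked above Tgm2 in CD8. Without the floor that order did not hold, since 1433428_x_at, 1437277_x_at and 1455900_x_at were then 57.8-fold, 56.9-fold and 88.6-fold higher.

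**Figure D2:**
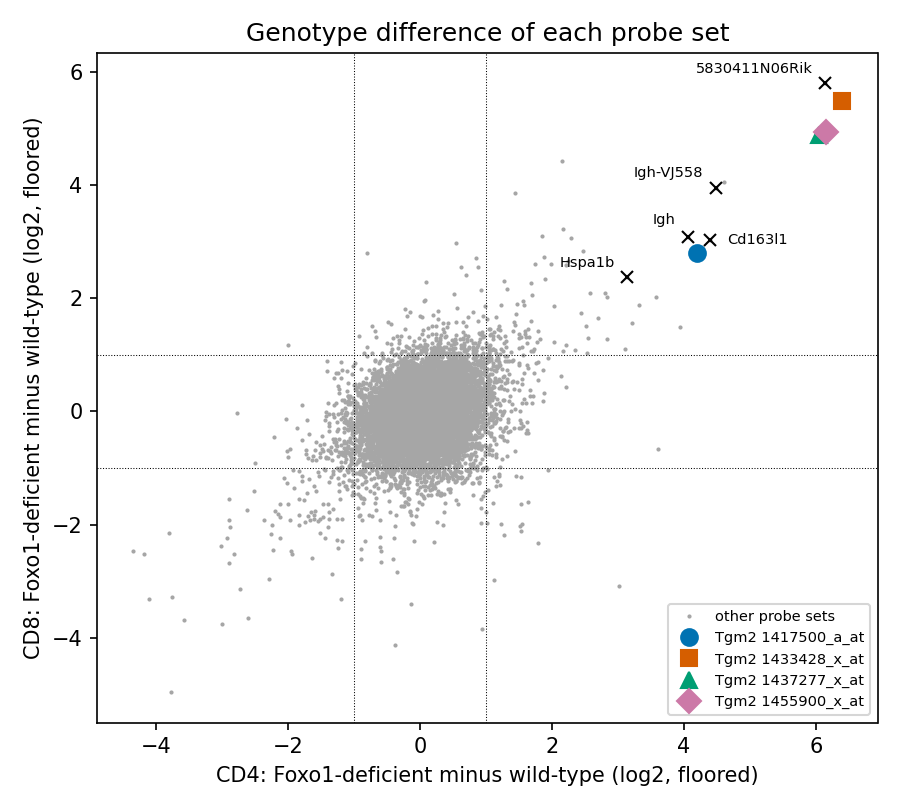
Each point is 1 of 22498 probe sets compared in both cell types, with the log2 difference between Foxo1-deficient and wild-type in CD4 on the x axis and in CD8 on the y axis; dotted lines mark 2-fold, large symbols are Tgm2 and crosses are the 5 named genes of most similar profile. Tgm2 lies at 4.20 to 6.39 in CD4 and 2.79 to 5.48 in CD8, far to the upper right of the bulk.

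The probe sets shared the direction of the genotype difference but not its size. A probe set carried a symbol only where the authors had listed it for a change. A Tgm2 probe set without a change would thus not have been seen, and the shared direction is no independent check. The spreads of other genes given below also rest only on listed probe sets. The log2 difference averaged 5.69 ± 1.01 in CD4 and 4.52 ± 1.19 in CD8 (SD over 4 probe sets of the same pair of arrays, which are not replicates), with bounds taken at their limit. Most of this spread came from 1417500_a_at, whose log2 difference was 4.20 in CD4 and 2.79 in CD8 against 6.04 to 6.39 and 4.89 to 5.48 for the other 3. Without the floor the spread in CD8 was 1.66, since the wild-type CD8 intensities ran from 25.8 to 88.2. Of 36 other genes with at least 3 named probe sets, 32 had a smaller spread than Tgm2 in CD4, also without the floor. In CD8 35 did. With the floor, and not limited to at least 3 probe sets, 89 of 93 other genes did in CD4 and 94 of 98 in CD8. The spread was not adjusted for the size of the difference. Cd55 and 1110059G02Rik had mean log2 differences of -4.46 and -4.48 in CD4, with spreads of 0.34 and 0.67. In CD8 their means were -5.51 and -5.10, with spreads of 2.48 and 1.35. The 3 Tgm2 probe sets other than 1417500_a_at bear the suffix _x_at, which Affymetrix gives to sets with probes that can match other transcripts. Such sets were 5.42% of all probe sets. The sources used here do not say whether the 4 probe sets overlap in the transcript sequence they read.

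The authors' deposited tables give the same probe sets with other intensities, and with smaller ratios than the value table gives without the floor. In the authors' deposited table for CD4 the ratios of Foxo1-deficient to wild-type were 16.9, 59.8, 62.7 and 67.3 in the order given above, at ranks 6, 3, 2 and 1 of 395 listed. In the authors' deposited table for CD8 they were 5.79, 37.4, 32.0 and 25.9, at ranks 26, 1, 3 and 4 of 496. The largest disagreement between the deposited sources was in a wild-type value. For 1455900_x_at in wild-type CD8, the authors' deposited table had 103, which is 4.01 times the 25.8 of the value table. Over the other 7 wild-type values the quotient of the sources was 0.793 to 1.57, and over the 8 Foxo1-deficient values 0.573 to 1.31.

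Among Foxo1-deficient cells, Tgm2 was lower in CD8 than in CD4 T cells, and here the 4 probe sets nearly coincided. The CD8 intensity was 44.2% of the CD4 intensity for 1417500_a_at, 47.2% for 1433428_x_at, 44.9% for 1437277_x_at and 43.2% for 1455900_x_at. This is a log2 difference of -1.16 ± 0.054 (SD between the 4 probe sets). All 4 were at least 2-fold lower in CD8, as were 2.94% of the 23637 probe sets compared between these arrays, and they ranked 394 to 557 from the lowest. Without the floor, none of the 36 other genes with at least 3 named probe sets had a spread this small in the same comparison. The smallest of theirs was 0.071 and their median 0.28. Values under the floor could enter these spreads, while all Tgm2 values here were above it. When genes were not limited to at least 3 probe sets, some had a smaller spread than Tgm2. These were 9 of 92 other genes with the floor and 10 of 102 without it. After median centring of the arrays the 4 Tgm2 probe sets stood at 47.4% to 51.8%, so that 1433428_x_at was 1.93-fold lower. Across the authors' deposited tables, which may have been scaled separately, the CD8 intensity was 36.7% to 41.5% of that in CD4.

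Among wild-type cells no cell type order could be given for Tgm2. Without the floor, 1417500_a_at was 1.26-fold higher in CD8, while the other 3 were 1.46-fold to 2.76-fold lower there. Both wild-type values were under the floor for 1437277_x_at and 1455900_x_at. In the authors' deposited tables the wild-type CD8 intensity was 65.2% to 121% of that in CD4, with 2 probe sets on each side of equality.

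**Figure D3:**
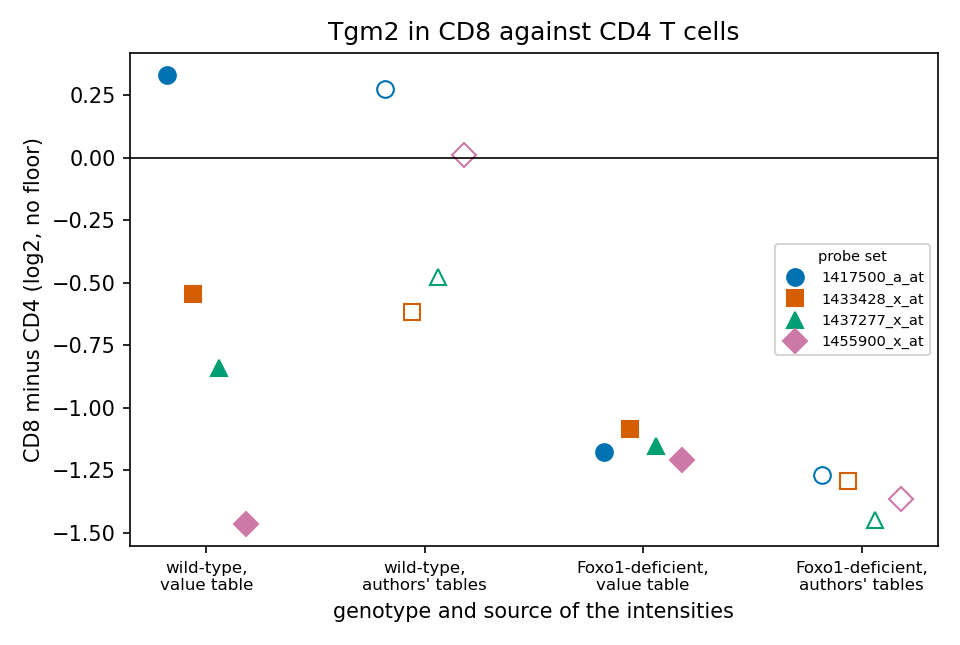
Log2 difference of Tgm2 intensity in CD8 minus CD4 T cells, without a floor, for each probe set in each genotype, from the value table (filled) and from the authors' fold change tables (open). The wild-type values scatter from -1.46 to 0.33, and the Foxo1-deficient ones lie between -1.45 and -1.08.

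Whether the genotype difference itself was larger in CD4 depended on the scale and on how the wild-type values were treated. As intensity units, the Foxo1-deficient array exceeded the wild-type array by 1307, 7018, 4864 and 5219 in CD4 and by 521, 3292, 2178 and 2259 in CD8. The excess in CD8 was 39.8% to 46.9% of that in CD4 for every probe set. Wild-type intensities were small beside the Foxo1-deficient ones. On this scale the share therefore largely repeats the 43.2% to 47.2% between the Foxo1-deficient arrays. On the log2 scale with the floor, the CD8 difference minus the CD4 difference was -1.41, -0.91, -1.15 and -1.21. Most differences in either cell type are bounds here, so -1.41 is an upper limit and -0.91 a lower limit. The values -1.15 and -1.21 belong to probe sets with both wild-type values set to the floor. They only repeat the log2 difference between the Foxo1-deficient arrays and cannot show whether the genotype difference was larger in CD4. Without the floor the 4 values became -1.51, -0.54, -0.31 and 0.25. The sign was then opposite for 1455900_x_at, the probe set on whose wild-type CD8 value the deposited sources differ most. With the ratios of the authors' deposited tables the 4 values were -1.54 to -0.68. No test of this difference is possible with 1 array per group.

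**Figure D4:**
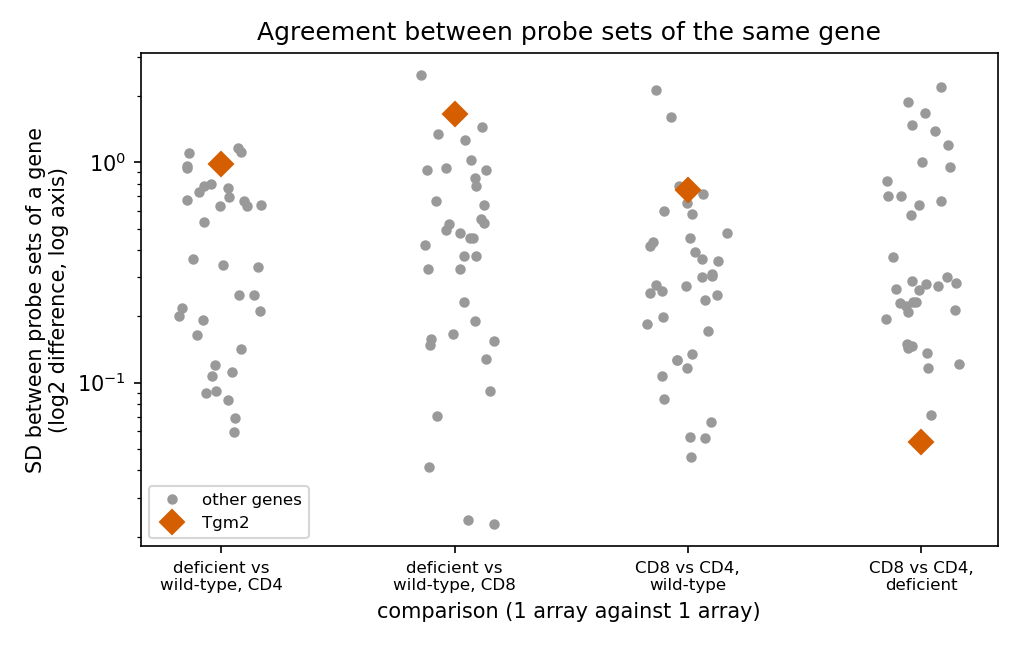
SD between the probe sets of a gene in their log2 difference without a floor (log axis), for Tgm2 (diamonds) and 36 other genes with at least 3 named probe sets (grey points), in each of the 4 comparisons. Tgm2 is near the top in the 3 comparisons that involve a wild-type array (0.98, 1.66 and 0.75). Between the Foxo1-deficient arrays it is at the bottom (0.054). Most wild-type Tgm2 values are under the floor. With the floor, the spread of CD8 minus CD4 in wild-type is 0.29 over 2 probe sets. Of 93 other genes, not limited to at least 3 probe sets, 56 then have a smaller spread and 37 a larger one.

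Genes with a similar profile were sought among the 506 other named genes, all of which the authors had listed for a change. Each probe set's log2 values with the floor were centred on their own mean over the 4 arrays, and likeness to 1433428_x_at was measured as the root mean square difference over the 4 arrays. The 3 other Tgm2 probe sets lay at 0.21, 0.25 and 1.23, and the median of all probe sets was 2.99. The nearest gene was 5830411N06Rik at 0.41, which was also the nearest of all 45033 other probe sets. Its intensities were 83.4 in wild-type CD4, 5888 in Foxo1-deficient CD4, 103 in wild-type CD8 and 5711 in Foxo1-deficient CD8. Unlike Tgm2, it was about as high in the CD8 as in the CD4 Foxo1-deficient array, at 97.0%.

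The next were Cd163l1, a scavenger receptor gene (1.20), and the immunoglobulin heavy chain entries Igh-VJ558 (1.28) and Igh (1.51). Hspa1b, an inducible heat shock gene, followed at 1.60. Hspa1b had intensities of 223 in wild-type CD4, 1962 in Foxo1-deficient CD4, 159 in wild-type CD8 and 824 in Foxo1-deficient CD8. Its CD8 value was 42.0% of the CD4 value among the Foxo1-deficient arrays, but 58.9% and 61.3% for its other probe sets, against 43.2% to 47.2% for Tgm2. The probe sets of Cd163l1 stood at 22.2% and 33.9%. Both immunoglobulin entries ran the other way, with Igh-VJ558 at 198% and 164% and Igh at 170%. Measured from 1437277_x_at or 1455900_x_at the same 5 genes were nearest. From 1417500_a_at only Cd163l1 and Hspa1b stayed among the 5, and Cd163l1 was then the nearest at 0.38.

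**Figure D5:**
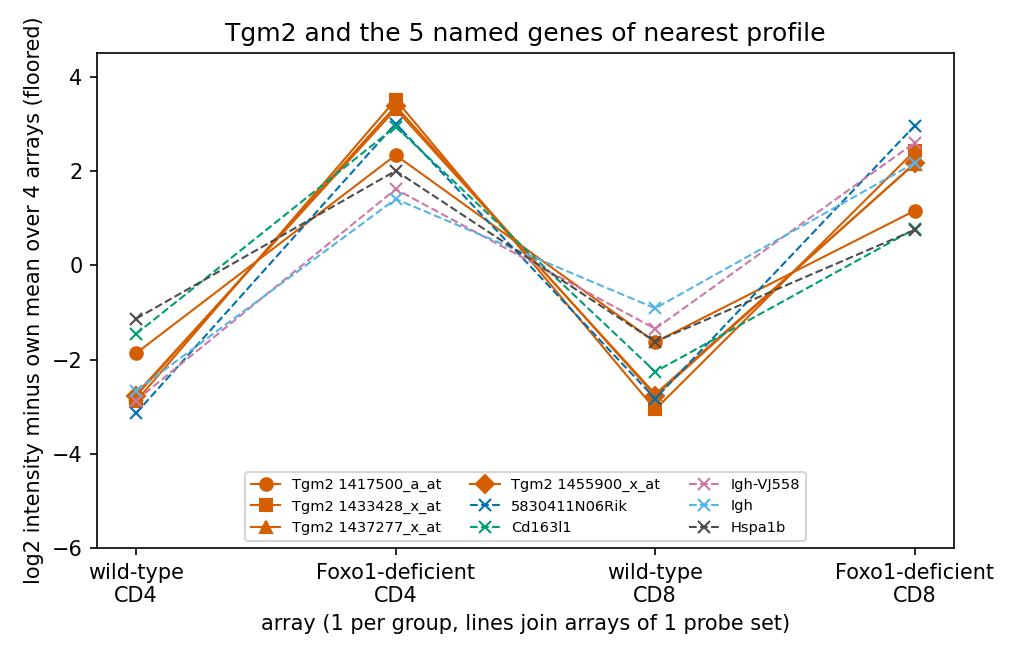
Log2 intensity with the floor, minus its own mean over the 4 arrays, for the 4 Tgm2 probe sets (solid lines) and the 5 named genes of most similar profile (dashed lines). All lines are high in the Foxo1-deficient arrays, Tgm2 higher in CD4 than in CD8, and Igh-VJ558 and Igh higher in CD8.

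Related genes could be followed only where the authors' tables give a symbol. None of the 8 other transglutaminase family genes and none of 19 TGF-beta pathway genes did. Of 15 genes for surface partners and matrix proteins of transglutaminase 2, 2 were named, and they differed in opposite directions. Their median log2 difference was at least 0.86 in CD4 and at least -0.48 in CD8, since the Lgals3 differences are bounds. Its sign in CD8 is therefore not settled. Itga4, the integrin alpha 4 chain of a fibronectin receptor, was 4.67-fold lower in Foxo1-deficient CD4 (4094 in wild-type, 876 in deficient). In CD8 it was 5.45-fold lower (4971 and 912). Lgals3, which encodes galectin 3, was higher by at least 15.3-fold in CD4 (73.5 and 1147) and at least 2.80-fold in CD8 (6.58 and 210). On the lower side 1.26% of all probe sets passed 2-fold in CD4 and 2.04% in CD8.

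Of 18 genes for the retinoic acid pathway and its targets, 3 were named, with Itga4 among them. Rarg, the retinoic acid receptor gamma, was 2.63-fold higher in Foxo1-deficient CD4 (386 and 1016) and 1.42-fold higher in CD8 (740 and 1054). The brightest probe set of Ccr9, which encodes a gut-homing chemokine receptor, had a 2.77-fold difference upward in CD4 (567 and 1568) and a 1.44-fold one in CD8 (10314 and 14853). Its other probe sets were 2.11-fold and 3.09-fold higher in CD8. The median log2 difference of the 3 genes was 1.40 in CD4 and 0.51 in CD8, beside 0.017 and -0.0031 over all probe sets compared with the floor. These genes had been listed by the authors for a change, so their counts and medians say nothing about the rest of each list. For the same reason the medians are no test against all probe sets. The probe sets used for Rarg and Ccr9 were listed for CD4 and not for CD8. The larger CD4 median therefore cannot be told apart from that choice.

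Markers of other cells could be followed in part. Of 8 macrophage and monocyte genes only Lyz2, the lysozyme gene, was named. It had intensities of 152 in wild-type CD4, 165 in Foxo1-deficient CD4, 46.6 in wild-type CD8 and 138 in Foxo1-deficient CD8. Lyz2 was thus 1.08-fold higher without Foxo1 in CD4 and at least 1.84-fold higher in CD8. Of 5 plasma cell genes 3 were named, Jchain, Igkc and Ighm. Of these, 2 were at least 2-fold higher without Foxo1 in CD4 and 3 in CD8. Of all probe sets compared, 1.5% were so in CD4 and 1.47% in CD8. Marker genes had a symbol only where the authors had listed them for a change, so these counts carry no test. The brightest probe set of Ighm, the mu heavy chain gene, had 56.9 and 107 in the CD4 arrays (at least 1.43-fold higher) and 44.3 and 314 in the CD8 arrays (at least 4.19-fold higher). Jchain went from 91.0 to 335 in CD4 and from 85.1 to 560 in CD8, and Igkc from 257 to 1157 and from 171 to 1595. Of 4 erythroid genes only Hba-a1, a globin gene, was named, and its wild-type signal exceeded the floor by 2.03-fold in CD4 and 1.61-fold in CD8 while both deficient values were under it. Of 4 NK cell genes, Nkg7 and Klrd1 were named, with log2 differences of at least 1.38 and of -3.79 in CD4, and of -0.00059 and -2.15 in CD8. No gene of the endothelial, stromal, dendritic cell, B cell or neutrophil lists was. The part of other cell types in the Tgm2 signal was not tested.

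In the RefSeq gene table of the mouse assembly GRCm38.p6, the protein-coding genes on either side of Tgm2 are Rprd1b and D630003M21Rik. None of the 20 nearest protein-coding genes, 10 on each side, was named in the authors' tables, where 2.10% of all protein-coding genes were.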

How the data were processed

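Per the labels' protocols, cRNA carrying biotin was prepared from 0.5 ug of total RNA for the Affymetrix arrays. The authors deposited a table with a linear intensity for each probe set on each array. The sources used here do not say how probes were combined, corrected for background or scaled, and the number of arrays limits the precision. The authors also deposited a fold change table per cell type, which holds both intensities, raw per the file headers, and their ratio. Those header names stand 1 column left of their values. The cell type of each table was taken from its name.

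Of 45101 probe sets, 64 controls were left out. Symbols came from the authors' tables, with 660 probe sets of 507 genes named, 56 of them updated through RefSeq synonyms. A further 33 listed probe sets had no symbol. Intensities were put on the log2 scale with the floor and not rescaled, and the brightest probe set (highest mean log2 value) stands for a gene. Probe sets past 2-fold were counted, a step tested on simulated data. No test across arrays was run. The 5 genes of most similar profile and the members of 4 pathway lists and 10 marker lists were named by rule. Members, lists and rules were chosen with earlier results of these data known. Python 3.11.15, numpy 2.4.6, pandas 2.3.3 and matplotlib 3.10.9 were used. No Tgm2 sequence was used here.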

Additional observations from a re-analysis of the deposited data

How the results depend on the processing

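No paired analysis was possible because each group has 1 array, and for the same reason no replicate could be left out. With the floor at the 75th percentile (471) the Tgm2 genotype difference was at least 3.92 log2 units in CD4 and at least 2.83 in CD8. Both are bounds, since the wild-type values were set to that floor. With the probe set 1417500_a_at alone the difference was at least 4.20 in CD4 and 2.79 in CD8. Other floored values in this paragraph also take bounds at their limit, among them the wild-type cell type difference. Under the other alternatives, the authors' intensities among them, both differences moved by less than 1 SD between probe sets. CD8 minus CD4 in wild-type was -0.18, became -0.54 with the floor at the 25th percentile (17.7) or with no floor and -0.62 with the authors' intensities, and turned to 0.030 as the mean of the 2 probe sets compared and to 0.24 for 1417500_a_at. It had no value with the floor at the 75th percentile or after centring on the hybridisation spike-in controls, where both arrays were under the floor. CD8 minus CD4 in Foxo1-deficient cells was -1.08, and it became -0.95 after median centring, -1.17 after quantile normalization, -1.16 as the mean of all probe sets, -1.18 for 1417500_a_at and -1.29 with the authors' intensities. The genotype difference in CD8 minus that in CD4 was -0.91, and -0.54 with the lower floor or none. It was -1.17 as the mean of all probe sets, -1.41 for 1417500_a_at and -0.68 with the authors' intensities. The mean of -1.17 includes probe sets with both wild-type values set to the floor, which only repeat the difference between the Foxo1-deficient arrays.

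Counts of all probe sets past 2-fold were 361 higher and 303 lower in CD4, 351 and 485 in CD8, and 696 lower in CD8 than CD4 among Foxo1-deficient arrays. In this order they were 1860, 2284, 1630, 3043 and 2738 with the floor at the 25th percentile, 85, 94, 92, 125 and 154 at the 75th, and 4358, 5589, 4072, 6851 and 6038 with no floor. At 1.5-fold they were 1588, 1203, 1427, 1827 and 2522, and at 3-fold 84, 78, 73, 127 and 181. Centring on the 9 spike-in controls gave 730 higher and 159 lower in CD4. Median centring gave 561 higher and 330 lower in CD8. The first moved the median log2 difference of all probe sets in CD4 from -0.0082 to 0.22. The second moved that in CD8 from -0.060 to 0.10. These medians were taken without the floor over all non-control probe sets, unlike the floored medians given earlier. The brightest Tgm2 probe set ranked 1 or 2 in CD4 and 2 or 3 in CD8 under every floor and scaling. Without the floor, an alternative chosen after seeing the data, 3 of the 5 genes of nearest profile were the same, and Grhl3 and Lgals3 were the others.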
